A study of Homo sapiens with 6 samples.

Results

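The genes that build tight junctions and desmosomes were examined in BT549 cells, a human triple-negative breast cancer line with mesenchymal traits, after transfection of siRNAs against BNC2. Members were chosen by gene symbol. They comprise every numbered claudin (23 genes), 6 other tight junction membrane proteins, 5 tight junction scaffolds, 7 desmosomal cadherins, 6 desmosome plaque proteins, and EPCAM and PERP, which makes 49 of the 23346 genes in the count table. The study asked how the transcriptome responds when BNC2, a zinc finger protein, is depleted. Both groups were wild-type BT549 cells that received 20 nM siRNA and were harvested 6 d later. The NC siRNA group (3 libraries) received negative control siRNA and the BNC2 siRNA group (3 libraries) an equal mix of 3 siRNAs, so that effects of a single siRNA cannot be told apart. Libraries were made from poly(A) RNA, and the replicates are described as biological ones. The labels and the methods name different transfection reagents (a Lipofectamine and RNAiMax).

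Tight junctions are belts of claudin strands near the apex of epithelial and endothelial cells that limit what passes between neighbouring cells. Occludin and the JAM proteins sit in the same membrane domain, and scaffolds such as ZO-1 and cingulin tie these proteins to actin. Desmosomes are spot-like contacts in which desmogleins and desmocollins bind the neighbouring cell, and plakoglobin, plakophilins and desmoplakin anchor them to intermediate filaments. Mesenchymal cells usually have few of these structures, although single components are also found in them.

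The 3 siRNAs of the mix were designed against the coding sequence of BNC2. Their guide strands are shown 5′ to 3′ with the seed (bases 2 to 8) in capitals, because a guide can also repress transcripts whose 3′ UTR matches its seed.
BNC2 siRNA (1): uUUACACUgaucacaagucct
BNC2 siRNA (2): uUGUCAUAgaaugucuucctt
BNC2 siRNA (3): uUUCGGCUucguacagaggtt
Each has a full-length match of 19 bases in the coding exons of BNC2, on the minus strand of chromosome 9 (GRCh37). The match of the first is gacttgtgatcagtgtaaa in exon 4 of 7 (chr9:16583000-16583018). The match of the second is ggaagacattctatgacaa in exon 6 (chr9:16436834-16436852), and that of the third is cctctgtacgaagccgaaa in exon 7 (chr9:16419045-16419063). BNC2 itself fell from 58.6 to 37.9 CPM (log2 fold change −0.63, SE 0.09, adjusted p = 8.2e-06), where CPM is the count scaled to library size with TMM factors.

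The libraries held 16093978 to 18246254 counts in genes. A gene was tested if it exceeded 1 CPM in at least 3 libraries, which 12186 genes did, and it was called at an adjusted p of at most 0.05 (edgeR's quasi-likelihood test, Benjamini-Hochberg adjusted over all 12186 genes). The labelled mesenchymal cell type was checked with marker lists. All 7 mesenchymal markers passed the filter, with a summed level of 4331 to 4415 CPM in the NC siRNA libraries and 5148 to 5364 CPM in the BNC2 siRNA libraries. This sum is mostly VIM (3024 CPM with NC siRNA), and the 7 genes did not move alike, since 5 rose (CDH2 and TWIST1 the most, 2.57-fold and 2.91-fold), ZEB2 fell and PRRX1 was not called. None of 7 epithelial markers passed, their summed level was 0.482 to 1.18 CPM against 0.989 to 1.35 CPM, and ESRP1 had no counts. Of them ESRP2 was higher with BNC2 siRNA (8, 7 and 2 against 13, 23 and 17 counts), and OVOL1 (2 in each against 0) and KRT19 (3, 5 and 2 against 1, 0 and 0) were lower. Endothelial (0.241 to 0.560 against 0 to 0.407 CPM), leukocyte (1.75 to 2.25 against 0.872 to 1.02 CPM) and melanocyte markers (0 to 0.361 against 0.116 to 0.573 CPM) were near 0. Of those 9 genes only CD14 was tested, through the NC siRNA libraries alone, and it fell. VWF, an endothelial marker, had 3, 6 and 4 counts with NC siRNA and 0 in every BNC2 siRNA library. In bulk RNA, fewer cells of a type and less RNA per cell cannot be told apart.

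Of the 49 members, 15 were tested and 34 were too low. Among the 15, 7 rose, 7 fell and OCLN was not called. Over all genes tested, 72.9% were called, 36.6% up and 36.2% down, so a call by itself sets no member apart from most genes. The groups did not overlap in 14 of the 15 members, against 74.9% of all genes tested. At least 2-fold rises were seen in 4 members (PERP, DSG2, DSP and PKP3; 8.07% of all genes) and at least 2-fold falls in 3, CLDN1 and JUP among them (10.1% of all genes). The median absolute log2 fold change was 0.89 over the 15 members and 0.44 over all genes tested. Of 9 tight junction members tested, 2 rose and 6 fell, while of 5 desmosome members tested 4 rose and 1 fell. The difference between those 2 sets was not tested. PERP and PKP3 exceeded 1 CPM only in the BNC2 siRNA libraries, and therefore entered the test through the group in which they were high. The other 13 members exceeded 1 CPM in all 6 libraries, and 5 of them rose and 7 fell, with at least 2-fold rises in 2 and falls in 3. The signed median of the 15 members was 0.34, against 0.00 for all genes tested. It had no stable sign, being −0.61 without the filter on low counts, a fit that includes genes at 0 in one group, and −0.15, −0.19 and −0.19 when BNC2 siRNA replicate 1, 2 or 3 was left out. In these last fits PERP and PKP3 are no longer tested, since only 2 libraries exceed 1 CPM.

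**Figure D1:**
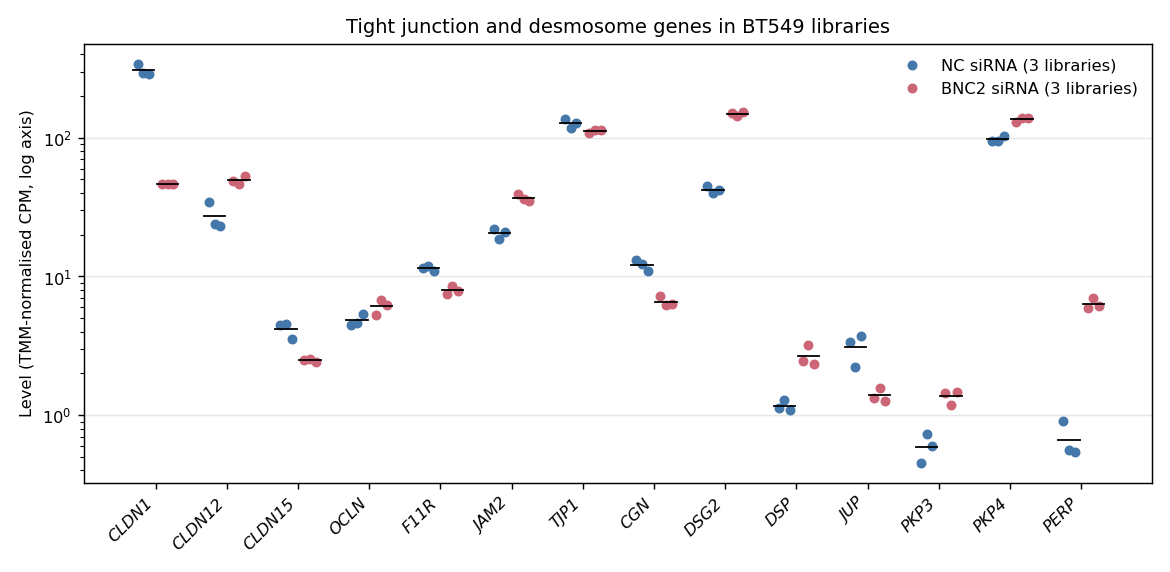
Level of 14 members tested, in TMM-normalised CPM on a log axis, in each NC siRNA library (blue) and each BNC2 siRNA library (red), with a black line at the mean of the 3 libraries of a group. CLDN1 was the highest member in the NC siRNA libraries at 306.7 CPM and dropped to 46.4 CPM, DSG2 rose from 42.3 to 149.1 CPM, and OCLN was the member whose groups overlapped.

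**Figure D2:**
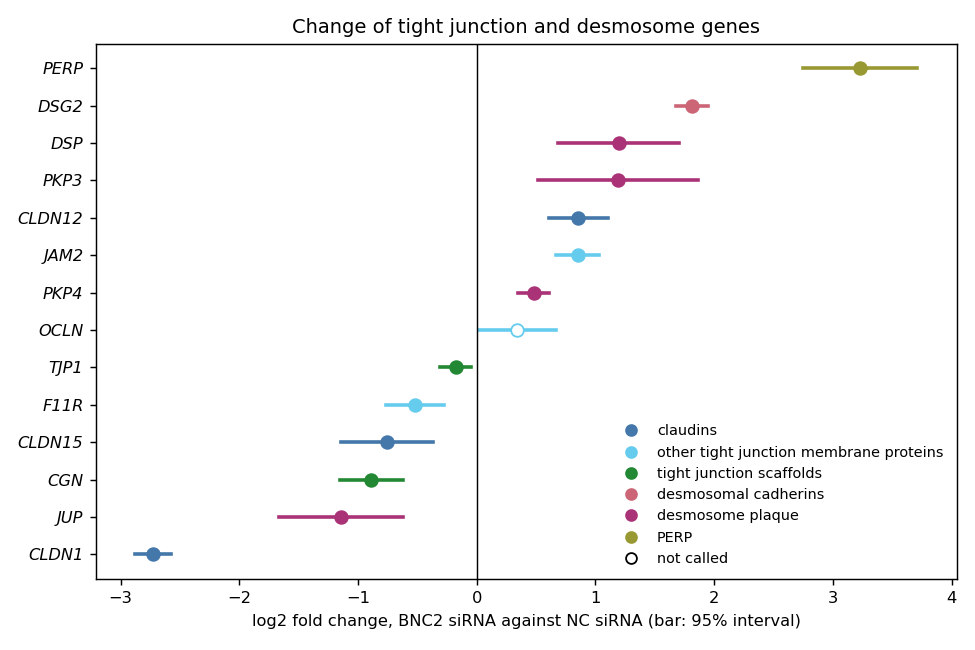
Log2 fold change of 14 members tested (BNC2 siRNA against NC siRNA), ordered by size, with the 95% interval as a bar and the colour giving the protein group. The values run from −2.72 for CLDN1 to 3.23 for PERP, the scaffolds TJP1 and CGN (green) lie below 0, and the open point marks OCLN, which was not called.

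CLDN1 encodes claudin-1, a barrier-forming claudin of epithelia and epidermis. The gene lies on the minus strand at chr3:190023496-190040235 (GRCh37). Its level was 340.2, 292.6 and 287.4 CPM with NC siRNA and 46.1, 46.4 and 46.7 CPM with BNC2 siRNA. The BNC2 siRNA libraries were nearly identical to one another and far below every NC siRNA library. CLDN1 fell from 306.7 ± 29.1 to 46.4 ± 0.336 CPM (SD, n = 3 each), 6.61-fold, with a log2 fold change of −2.72 (SE 0.07, 95% interval −2.88 to −2.57, adjusted p = 1.3e-14 in edgeR). Of all genes tested, 1.69% had a larger change in either direction. Its 3′ UTR of 2570 bases holds 2 matches to the seed of BNC2 siRNA (1), at bases 985 and 2351, shown here in the sense of the mRNA with the match in capitals.
CLDN1 site at base 985: gtattgttttcccaAGTGTAAt
CLDN1 site at base 2351: cttcatgatgtgtgAGTGTAAt
They lie at chr3:190025074-190025095 and chr3:190023708-190023729, on the minus strand of GRCh37. A match to this seed, AGTGTAA, occurred in the 3′ UTR of 13.7% of the 10509 genes tested that have an annotated one, a match to the second seed, TATGACA, in 10.2% and one to the third, AGCCGAA, in 2.22%. A match to any of them was present in 22.7% of those genes and in 5 of the 15 members. These were CLDN1 and TJP1 (1 match to the second seed) among the 7 that fell, and CLDN12 (1, second), JAM2 (1, second) and PERP (1 each to the first and second) among the 7 that rose. The part of such matches in the level of any member was not tested.

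CLDN12 and CLDN15 were the other claudins that passed the filter. CLDN12, an atypical claudin without a PDZ-binding end, had 34.6, 23.9 and 22.9 CPM with NC siRNA and 48.7, 46.2 and 52.7 CPM with BNC2 siRNA. The first NC siRNA library stood above its group but below all BNC2 siRNA libraries. CLDN12 rose 1.81-fold, from 27.1 ± 6.48 to 49.2 ± 3.29 CPM (log2 fold change 0.86, SE 0.12, adjusted p = 6.3e-06). CLDN15, a claudin that forms channels for cations in the intestine, was low, with 4.51, 4.54 and 3.55 CPM against 2.50, 2.54 and 2.42 CPM. The groups did not overlap and CLDN15 fell, with a log2 fold change of −0.76 (SE 0.18, adjusted p = 0.0014).

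Of the 20 claudins below the filter, 9 had no count in any library (CLDN3, CLDN5, CLDN8, CLDN10, CLDN17, CLDN18, CLDN19, CLDN24 and CLDN25). At these depths 3 counts, the number that a count of 0 still allows, correspond to 0.168 to 0.191 CPM, and such limits cover counting error only. CLDN14, a claudin known from the inner ear and kidney, had 10, 13 and 15 counts with NC siRNA and 0 in every BNC2 siRNA library. Against 3 counts per library this is at least 4.10-fold lower, from 0.731 ± 0.170 CPM. CLDN9 had 14, 11 and 10 counts against 5, 11 and 3, and CLDN7 had 10, 5 and 6 against 6, 9 and 11, and in both the groups overlapped. The remaining claudins had at most 9 counts in any library. Of these, 3 are named here after their values were seen, because a fit without the filter called them down together with CLDN14 and PKP1. CLDN2, a pore-forming claudin, had 8, 8 and 3 counts against 1, 1 and 0. CLDN4 had 5, 2 and 4 counts against 0 in every BNC2 siRNA library. CLDN16, which acts in renal magnesium uptake, had 5, 6 and 3 counts against 0, 1 and 0. It is the nearest member to CLDN1, starting 94 bases from it on the opposite strand of chromosome 3.

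Per transcript length, the fall of CLDN1 and the rise of CLDN12 left claudin mRNA with a different make-up. Levels are given here as RPKM, the TMM-normalised CPM per kb of the GENCODE canonical transcript, so that genes can be compared. CLDN1 was the highest of all members in the NC siRNA libraries at 89.0 ± 8.45 RPKM and fell to 13.5 ± 0.0976 RPKM in the BNC2 siRNA libraries. CLDN12 went from 7.68 ± 1.83 to 13.9 ± 0.931 RPKM. CLDN1 thus made up 87.5% ± 0.768 of the summed RPKM of the 23 claudins in the NC siRNA libraries and 44.6% ± 0.927 in the BNC2 siRNA libraries, where CLDN12 reached 46.1% ± 1.97 after 7.48% ± 0.968. The ratio of CLDN1 to CLDN12 RPKM was 10.1, 12.6 and 12.8 with NC siRNA and 0.970, 1.03 and 0.909 with BNC2 siRNA. Summed claudin RPKM was 101.8 ± 10.6 and 30.2 ± 0.801. None of these shares and sums overlapped between the groups, and they are descriptions of values already tested gene by gene.

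The other tight junction membrane proteins did not share a direction. JAM2, an adhesion molecule of the immunoglobulin family best known from endothelium, had 21.9, 18.5 and 20.9 CPM against 39.1, 36.4 and 35.1 CPM. All BNC2 siRNA libraries were above all NC siRNA libraries, and JAM2 rose 1.80-fold (log2 fold change 0.85, SE 0.09, adjusted p = 1.6e-07). F11R, which encodes the related JAM-A of epithelia and leukocytes, had 11.43, 11.99 and 11.02 CPM against 7.503, 8.575 and 7.895 CPM and fell (log2 fold change −0.52, SE 0.11, adjusted p = 0.00064). OCLN, the gene of occludin, had 4.45, 4.65 and 5.36 CPM against 5.29, 6.77 and 6.24 CPM. One BNC2 siRNA library lay below the highest NC siRNA library. OCLN was not called, with a log2 fold change of 0.34 (SE 0.15, 95% interval 0.02 to 0.67 before adjustment, adjusted p = 0.054). It was called when BNC2 siRNA replicate 1 was left out (0.44, adjusted p = 0.027), and over all alternatives its adjusted p ran from 0.027 to 0.20. OCLN also has a pseudogene copy, OCLNP1, on chromosome 5, and reads that map to both are missing from its counts. MARVELD2, or tricellulin, which seals the corners where several cells meet, had 14, 12 and 10 counts against 17, 19 and 18 and was below the filter. MARVELD3 and JAM3 had at most 2 counts in any library.

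The scaffolds TJP1 and CGN fell. TJP1, which encodes ZO-1, had 135.4, 117.9 and 126.8 CPM against 108.7, 114.0 and 113.3 CPM. Its highest BNC2 siRNA library was just under its lowest NC siRNA library. TJP1 fell by 0.18 on the log2 scale (SE 0.06, adjusted p = 0.017), and without BNC2 siRNA replicate 1 this was no longer called (−0.15, adjusted p = 0.071). Its adjusted p ran from 0.0019 to 0.071 over all alternatives. CGN, the gene of cingulin, had 13.2, 12.4 and 10.9 CPM against 7.21, 6.21 and 6.30 CPM and fell without overlap (log2 fold change −0.89, SE 0.13, adjusted p = 7.6e-06). Its paralogue CGNL1 had 12, 10 and 3 counts against 6, 9 and 15, and TJP3 had at most 3 counts in any library.

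DSG2 was the only desmosomal cadherin above the filter. It encodes desmoglein-2, the desmoglein of simple epithelia and heart muscle. It had 44.7, 40.1 and 42.1 CPM with NC siRNA and 149.6, 144.2 and 153.4 CPM with BNC2 siRNA. Every BNC2 siRNA library was well above every NC siRNA library. DSG2 rose 3.52-fold, from 42.3 ± 2.29 to 149.1 ± 4.61 CPM (log2 fold change 1.82, SE 0.06, 95% interval 1.68 to 1.95, adjusted p = 4.4e-13), and 5.12% of all genes tested had a larger change. The 7 desmosomal cadherin genes lie together on chromosome 18 (chr18:28569331-29128971, GRCh37), with DSG2 at one end (chr18:29078140-29128971, plus strand). None of its neighbours passed the filter in either group. DSG3, DSG4 and DSC1 had no counts, DSG1 had 1 count in 1 library, and DSC3 had 4 counts in BNC2 siRNA replicate 3 only. DSC2 had 4, 3 and 3 counts against 0, 1 and 0. Per transcript length DSG2 thus made up 99.8% of desmosomal cadherin mRNA in the NC siRNA libraries and 99.9% in the BNC2 siRNA libraries, with no desmocollin above the filter in either group.

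Of the plaque proteins, 3 rose and 1 fell. PKP3, among those that rose, exceeded 1 CPM only in the BNC2 siRNA libraries. JUP encodes plakoglobin, also called gamma-catenin, which binds the tails of desmosomal cadherins and also of classical cadherins. It had 3.38, 2.24 and 3.73 CPM with NC siRNA and 1.34, 1.58 and 1.27 CPM with BNC2 siRNA. The groups did not overlap, and JUP fell 2.21-fold (log2 fold change −1.15, SE 0.25, adjusted p = 0.00052). Desmoglein-2 and plakoglobin mRNA therefore moved in opposite directions. The ratio of DSG2 to JUP per transcript length was 8.70 ± 2.09 in the NC siRNA libraries and 66.4 ± 9.22 in the BNC2 siRNA libraries. DSP encodes desmoplakin, the link from the plaque to intermediate filaments, and was low, with 1.13, 1.29 and 1.08 CPM against 2.44, 3.22 and 2.36 CPM. It rose 2.29-fold without overlap (log2 fold change 1.19, SE 0.24, adjusted p = 0.00029).

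The plakophilins are armadillo proteins that bind desmoplakin. PKP4, also known as p0071, is found at both desmosomes and adherens junctions. It had 95.1, 94.0 and 102.5 CPM against 128.9, 138.6 and 138.9 CPM, and all BNC2 siRNA libraries were higher. PKP4 rose 1.39-fold (log2 fold change 0.48, SE 0.06, adjusted p = 2.2e-06) and supplied 94.2% ± 0.666 of summed plaque RPKM in the NC siRNA libraries and 96.2% ± 0.178 in the BNC2 siRNA libraries. PKP3 was near the filter with 8, 13 and 10 counts against 25, 21 and 23. The counts did not overlap, and PKP3 rose (log2 fold change 1.19, SE 0.32, adjusted p = 0.0031). Like PERP, it passed the filter only through the BNC2 siRNA libraries, and without the filter it was called as well (1.22). PKP1, the plakophilin of stratified epithelia, had 8, 6 and 6 counts against 0 in every BNC2 siRNA library, at least 2.15-fold lower against 3 counts per library. PKP2 had 4 counts in NC siRNA replicate 3 and none elsewhere.

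**Figure D3:**
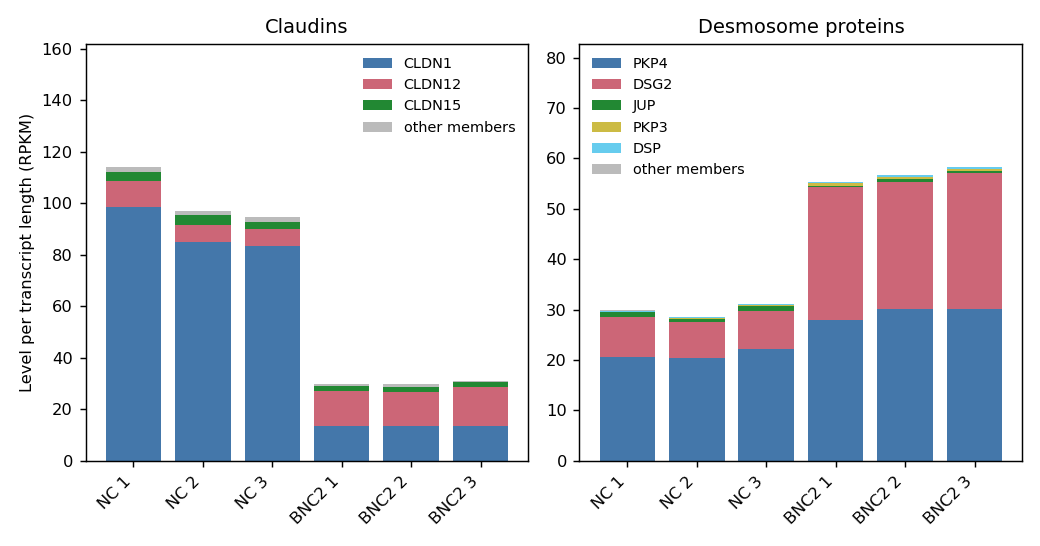
Summed level per transcript length (RPKM, stacked bars from 0) of claudins and desmosome proteins in each of the 6 libraries, coloured by gene. CLDN1 filled most of the claudin bar in the NC siRNA libraries (87.5%) and shared it with CLDN12 in the BNC2 siRNA libraries, and DSG2 grew beside PKP4.

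PERP had the largest rise among the members. It encodes a membrane protein that is induced by p53 and p63 and is needed for stable desmosomes in epidermis. The gene lies on the minus strand at chr6:138409642-138428556 (GRCh37). It had 16, 10 and 9 counts with NC siRNA and 102, 123 and 97 counts with BNC2 siRNA. As CPM this was 0.901, 0.560 and 0.542 against 5.93, 6.94 and 6.18, with no overlap. PERP rose 9.39-fold (log2 fold change 3.23, SE 0.23, 95% interval 2.75 to 3.71, adjusted p = 1.8e-09). It exceeded 1 CPM only with BNC2 siRNA and so was tested because it was high there. Without the filter it was called as well (log2 fold change 3.26). Its level was modest, 1.51 ± 0.125 RPKM in the BNC2 siRNA libraries. EPCAM, an epithelial adhesion molecule that stabilises claudins, had no counts in any library.

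Among 6 members compared by RPKM, the NC siRNA libraries ran CLDN1, PKP4, TJP1, CLDN12, DSG2 and JAM2 from high to low, and the BNC2 siRNA libraries PKP4, DSG2, TJP1, CLDN12, CLDN1 and JAM2. In the second order PKP4 (29.4 ± 1.24 RPKM) was above DSG2 (26.2 ± 0.810 RPKM), and TJP1 stood at 15.6 ± 0.400 RPKM. CLDN12 (13.9 ± 0.931 RPKM) and CLDN1 (13.5 ± 0.0976 RPKM) lay within their spread of each other. In the NC siRNA libraries CLDN12 (7.68 ± 1.83 RPKM) and DSG2 (7.43 ± 0.401 RPKM) lay within their spread.

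Promoter sequences are shown for CLDN1 and PERP, the members with the largest fall and rise, and for DSG2 and DSP, which rose and hold the E-box CACCTG, the core sequence bound by ZEB and SNAIL repressors of epithelial genes. Each is the 250 bases before the transcription start in RefSeq (GRCh38.p14), 5′ to 3′ in the direction of the gene, with CACCTG or its reverse complement CAGGTG in capitals.
CLDN1 (chr3:190322447-190322696, minus strand): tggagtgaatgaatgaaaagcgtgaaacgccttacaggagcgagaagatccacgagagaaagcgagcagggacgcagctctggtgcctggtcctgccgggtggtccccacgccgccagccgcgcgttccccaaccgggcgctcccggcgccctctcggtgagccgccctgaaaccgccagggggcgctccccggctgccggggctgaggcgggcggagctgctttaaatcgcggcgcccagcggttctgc
PERP (chr6:138107420-138107669, minus strand): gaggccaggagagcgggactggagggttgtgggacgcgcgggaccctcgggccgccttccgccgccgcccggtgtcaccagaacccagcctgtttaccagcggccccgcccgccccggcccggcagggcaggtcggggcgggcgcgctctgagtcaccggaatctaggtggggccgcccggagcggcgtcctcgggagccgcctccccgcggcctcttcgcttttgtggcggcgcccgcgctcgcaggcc
DSG2 (chr18:31497927-31498176, plus strand): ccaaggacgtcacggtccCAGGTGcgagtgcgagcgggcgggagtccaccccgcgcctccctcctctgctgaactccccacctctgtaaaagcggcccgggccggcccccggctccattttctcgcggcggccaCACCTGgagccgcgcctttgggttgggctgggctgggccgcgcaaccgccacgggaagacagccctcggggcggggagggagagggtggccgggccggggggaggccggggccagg
DSP (chr6:7541421-7541670, plus strand): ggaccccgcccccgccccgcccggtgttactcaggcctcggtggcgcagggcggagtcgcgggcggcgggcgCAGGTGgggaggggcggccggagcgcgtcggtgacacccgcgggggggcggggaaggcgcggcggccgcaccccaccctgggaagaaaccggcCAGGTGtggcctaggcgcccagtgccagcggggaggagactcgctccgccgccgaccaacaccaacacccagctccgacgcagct
All 4 windows are rich in G and C (68.8% for CLDN1, 77.2% for PERP, 75.2% for DSG2 and 78.0% for DSP). DSG2 has the E-box 232 and 116 bases before the start and DSP 178 and 85 bases before it. Windows were found for 11 of the 15 members tested, and F11R, JAM2 and PKP3 had none. Some had several start sites, which gave 17 windows. CACCTG on either strand was present in 6 of the 17, belonging to OCLN, TJP1, JUP, DSG2 and DSP. Of these 5 genes, DSG2 and DSP rose, JUP and TJP1 fell and OCLN was not called. In JUP the E-box lies 54 and 43 bases before a start, in TJP1 88 bases, and in OCLN 33 and 133 bases before different starts. Of all 35116 promoter windows, cut to the same 250 bases before the start, 17.5% held CACCTG. The AP-1 motif TGANTCA occurred in 2 of the 17, those of PERP and CLDN15, and in 6.57% of all windows. The GC box GGGCGG occurred in 13 of the 17 and in 42.6% of all windows, and TATAAA in none of the 17 and in 10.7% of all windows. A match is a description of the sequence, and binding of any factor was not measured. The ZEB genes moved in opposite directions. ZEB1 rose from 120.3 to 152.1 CPM (log2 fold change 0.34, adjusted p = 0.00045) and ZEB2 fell from 98.8 to 42.5 CPM (−1.22, adjusted p = 1.8e-10), and their part in the level of any member was not tested.

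Other genes linked to cell junctions and polarity were compared as lists of 56 genes. Of these, 45 were tested, 23 rose, 14 fell and 8 were not called. The share called was 82.2%, near that of all genes. Among 15 polarity genes tested, 8 rose and 4 fell. MPDZ (log2 fold change 1.00) and MPP5 (0.92), which encode the PDZ scaffolds MUPP1 and PALS1, rose, and PARD6A (−1.25) and PARD3B (−1.01) of the PAR family fell. Others of the PAR complex, named after their values were seen, moved in both directions. PARD3 rose from 68.6 to 122.7 CPM (0.84) and PRKCI from 64.1 to 84.2 CPM (0.39), and PARD6B fell from 3.62 to 1.68 CPM (−1.12). PARD6G was not called (−0.03).

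Of 5 genes tested in a list of tricellular, CTX-family and other membrane proteins, 1 rose and 2 fell. CXADR, a receptor for coxsackievirus and adenovirus that resides at tight junctions, rose from 11.6 ± 1.39 to 40.6 ± 4.04 CPM (log2 fold change 1.81, SE 0.10, adjusted p = 1.5e-10). ESAM, the related endothelial adhesion molecule, fell from 6.30 ± 0.586 to 0.748 ± 0.553 CPM (log2 fold change −3.02, SE 0.30, adjusted p = 1.1e-07), having passed the filter through its NC siRNA libraries. With JAM2 up and F11R down, genes of this family of immunoglobulin-like adhesion molecules thus moved in both directions. BVES fell by 0.42 on the log2 scale.

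Among 9 catenins, nectins and partners tested, 5 rose and 3 fell. CTNNA2, the neural alpha-catenin, rose from 1.51 to 6.61 CPM (log2 fold change 2.12) and MLLT4, or afadin, rose as well (0.96). CTNNA1, the alpha-catenin of epithelia, fell (−0.46), as did PVRL1, or nectin-1 (−1.41). Of 11 genes tested in a list of signalling, actin and other junction-associated genes, 6 rose and 4 fell. The largest values were those of MYLK (0.88) and SYMPK (0.70) upwards and ARHGAP17 (−0.73) and ARHGEF11 (−0.64) downwards. Of 5 plakin and hemidesmosome genes tested, 3 rose and 1 fell. PLEC, whose product plectin links intermediate filaments to other structures, rose from 835.3 ± 54.3 to 2392 ± 93.9 CPM (log2 fold change 1.52, SE 0.06, adjusted p = 2.0e-12). ITGA6, a subunit of the hemidesmosomal integrin, rose (1.10), and DST, which encodes dystonin, fell (−0.47).

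**Figure D4:**
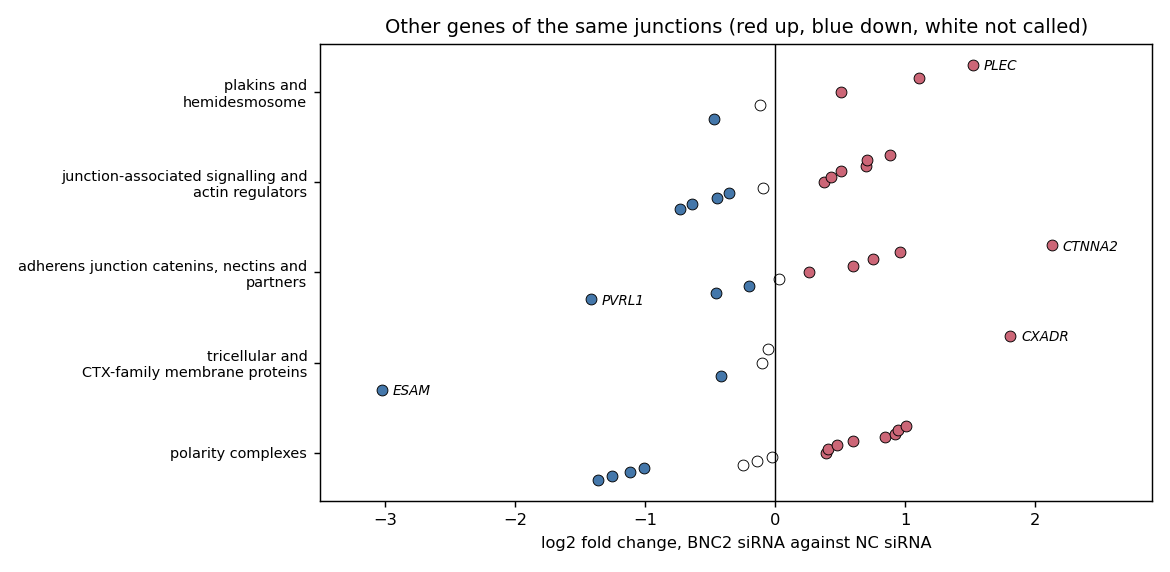
Log2 fold change (BNC2 siRNA against NC siRNA) of the 45 genes tested in the 5 lists of other genes linked to cell junctions and polarity. Rises are in red, falls in blue and genes not called in white. Every list holds genes that rose and genes that fell, and the named points are CTNNA2, CXADR and PLEC on the right and PVRL1 and ESAM on the left.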

How the data were processed

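Poly(A) RNA of 6 BT549 libraries was sequenced as single-end reads, which the authors aligned with STAR 2.6.1d to hg19 and counted per gene. They deposited raw counts of uniquely mapped reads per gene, as a table of the series and 1 table per library, and the table of the series holds the reverse-strand counts. Reads assigned to no gene (37.7% to 41.1% per library) stayed out of library sizes and tests.

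Genes above 1 CPM in at least 3 libraries were scaled with TMM and compared with edgeR 4.0.16 (glmQLFit and glmQLFTest, limma 3.58.1, R 4.3.3), with Benjamini-Hochberg adjustment over 12186 genes and calls at 0.05. The SE is the log2 fold change divided by the square root of F. With 3 libraries against 3, an exact permutation test of 1 gene cannot give a p below 0.1, so the p-values given are those of the fit over all genes. Replicates of a group differed by more than counting noise. CPM and RPKM were computed here from the deposited counts. Positions, UTRs and transcript lengths come from GENCODE v44 on GRCh37, the assembly of hg19, and promoters from RefSeq. The 15 tested members share no exon on their own strand with another gene of the table. In simulated counts with 200 genes changed 2-fold, 195 of the 197 tested were recovered, beside 19 false calls, with 12093 genes run. Every gene was given the same spread between libraries, and far fewer genes changed than the 8879 called here. The simulation therefore cannot give the rate of false calls in these data.

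Every member that passed the filter is named, except 1 that is counted but not reported here, and the others by their counts (individually from 10 counts in a library). Of the linked lists, the 2 largest rises and 2 largest falls per list from 5 CPM are named. The members and lists were chosen with earlier results of these data known. Alternatives were a likelihood ratio test, DESeq2 1.42.0, its size factors, total counts, filterByExpr or no filter, both strands counted, a replicate block, and leaving out each library.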

Additional observations from a re-analysis of the deposited data

Results flagged for a closer look

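Reads on the strand opposite to CLDN18, a column that the comparisons did not use, numbered 6, 7 and 8 with NC siRNA and 11, 11 and 10 with BNC2 siRNA, while the gene's own strand had none. Their mean level was 0.404 CPM in the control group and 0.632 CPM in the BNC2 siRNA group, and every BNC2 siRNA library was above every NC siRNA library. The difference was not tested.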

How the results depend on the processing

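Of 204 values of single members under the alternatives, 197 kept their direction and their side of the threshold and 0 reversed. Of the 15 members, 13 kept every value they had. PERP and PKP3 are among these 13 but had values in only 11 of the 14 alternatives. They were not tested when a BNC2 siRNA library was left out. Members called down numbered 12 of 36 tested without the low-count filter, against 7 of 15. Over all genes, 4843 of 18121 were called down in that fit, against 4417 of 12186. The members' median log2 fold change of 0.34 was −0.61 without that filter, 0.091 with filterByExpr and 0.089 with both strands counted, and −0.19 to 0.40 with a library left out. OCLN was called with the likelihood ratio test (adjusted p = 0.038), without the filter (0.041), with filterByExpr (0.049) and with both strands (0.0498). The replicate numbers did not pair the libraries, since deviations of same-numbered libraries correlated at −0.21, −0.08 and −0.13. With a replicate block, 8400 genes were called against 8879, and members called were 7 up and 6 down, the loss being TJP1 (−0.18, adjusted p = 0.053). With a library left out, 8084 to 8596 genes and 12 to 14 members were called, and BNC2 lay between −0.73 and −0.56. The cause of these shifts was not tested. Some alternatives also changed the members tested, which numbered 15 in the main fit. The number was 36 without the filter, 18 with filterByExpr or both strands counted, and 13 without any 1 BNC2 siRNA library. Members with fewer than 10 counts in every library are limited by depth.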

Other observations

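Opposite-strand reads of CLDN1 numbered 22, 13 and 15 in the NC siRNA libraries and 1 in each BNC2 siRNA library. Every BNC2 siRNA library was below every NC siRNA library, and the difference was not tested. These reads were a trace beside the gene's own strand, which had 6040, 5224 and 4774 counts against 792, 823 and 734 and fell too. Whether they come from a separate transcript was not tested. Opposite-strand reads of CLDN22 numbered 71, 69 and 51 against 67, 74 and 87, many more than the 1, 1 and 1 against 0 counts of its own strand, and exons of WWC2 on that strand overlap all 2177 bases of CLDN22. JAM3, which had at most 2 counts on its own strand, had 46, 26 and 32 opposite-strand reads against 34, 31 and 23, with overlapping groups, and exons of NCAPD3 on that strand overlap 1889 bases of it.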
